A study of Macaca fascicularis with 4 samples.

Results

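The actins and alpha-actinins described here are 9 genes of the 13982 named in gene counts from 4 tissues of the cynomolgus monkey (Macaca fascicularis). They were chosen by symbol: the 5 actins ACTA1, ACTC1, ACTA2, ACTB and ACTG1, and the 4 alpha-actinins ACTN1, ACTN2, ACTN3 and ACTN4. The tissues were liver, muscle and a pair named oWAT and sWAT, which are left unexpanded in the labels (WAT commonly stands for white adipose tissue). The deposited files of that pair carry the abbreviations eWAT and iWAT, and the labels' names were followed. For each tissue there is 1 library, made from the pooled RNA of 5 monkeys, and no treatment, sex or age is given in the labels. Whole cDNA molecules were read on the PacBio Sequel II platform. With 1 library per tissue there are no replicates and no tests. All intervals below are exact 95% intervals that cover counting error alone, not the spread between animals.

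Actin is the protein of the thin filaments of muscle and of the microfilaments of every cell, and it is encoded by a small family of genes whose products are nearly identical in sequence. ACTA1 is the adult skeletal muscle form, ACTC1 the cardiac form that also occurs in developing and regenerating skeletal muscle, ACTA2 the vascular smooth muscle form, and ACTB and ACTG1 the cytoplasmic forms found in all cell types. Alpha-actinins are rod-shaped dimers that cross-link actin filaments. ACTN2 and ACTN3 anchor thin filaments in the Z-disc of the sarcomere, ACTN2 in all fibres and ACTN3 in fast ones, whereas ACTN1 and ACTN4 bind actin at stress fibres, adhesions and cell junctions.

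The library totals, without the counts that name no gene, ran from 383896 in sWAT to 439872 in muscle, so that 1 count is worth between 2.27 and 2.60 in per-million units (CPM). Defining markers matched the tissue labels. All 10 skeletal myofibre markers had counts in muscle (121449 CPM summed) beside 41.1 to 139 CPM in the other libraries, the 6 hepatocyte markers summed to 152975 CPM in liver against 2.27 to 10.1, and the 6 adipocyte markers to 14138 CPM in oWAT and 15575 in sWAT, with 57.1 in liver and 987 in muscle. A gene was called higher in a library where it had at least 10 counts there and the lower bound of its fold was above 2. Scaling to the library total left the median gene 1.97 times higher in oWAT than in liver, 1.68 times in sWAT and 1.39 times in muscle. Scaling factors from edgeR (trimmed mean of M-values, TMM) and DESeq2 remove most of that shift, and are given wherever they end a call. Backgrounds, the percent of all genes called, were found by library total alone. Counts of calls with TMM or DESeq2 therefore have no background beside them. These are bulk libraries, in which fewer cells of a type and less RNA per cell cannot be told apart.

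The striated actins were almost entirely a muscle signal, and almost entirely ACTA1. ACTA1 had 15827 counts in muscle (35981 CPM, 35423 to 36546), 1 in liver, 0 in oWAT and 1 in sWAT. It was the most abundant gene of the muscle library, at 3.60% of all counts. Over oWAT, whose 0 counts were replaced by 3 for the fold, the level was 4759-fold higher, with an exact lower bound of 3870. The ratio to liver was 15745 (2825 to 621925) and the ratio to sWAT 13813 (2479 to 545616). ACTC1 had 7 counts in muscle (15.9 CPM, 6.40 to 32.8) and 0 in the other 3 libraries, too few for a call. In muscle ACTA1 therefore outnumbered ACTC1 by 2261 to 1 (1097 to 5625), a ratio of counts between genes of closely similar coding length. Of 10 markers of cardiac muscle, muscle held 1 count in all, of MYBPC3, and MYH6, MYL7, NPPA, NPPB and TNNI3 had no entry in any library and were taken as 0. Some genes of the lists that most cells use had no entry either, so such a 0 may reflect naming and does not show absence. Of 6 listed genes of myoblasts and satellite cells, MYF5 and MYMK had no entry, and PAX7 had 5 counts in muscle and 0 elsewhere. CHRNA1 had 51 counts in muscle and 2, 1 and 3 in liver, oWAT and sWAT. MYH3 and MYH8, which mark developing or regenerating fibres, had 37 and 96 counts in muscle and 0 elsewhere. Myosin heavy chains are close copies of one another, so these values carry the uncertainty of how shared reads were counted.

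The sarcomeric alpha-actinins followed the same tissue but were shared between a pair of genes. ACTN3 had 2914 counts in muscle (6625 CPM, 6386 to 6870), 55 in oWAT (139 CPM, 104 to 180), 21 in sWAT (54.7 CPM, 33.9 to 83.6) and 1 in liver. ACTN2 had 2007 counts in muscle (4563 CPM, 4365 to 4767), 2 in oWAT and 0 in liver and sWAT. The muscle count of ACTB happens to be the same number in the deposited file. In muscle ACTN2 was 666-fold higher than in liver (lower bound 541) and 584-fold higher than in sWAT (lower bound 474). For these folds its 0 counts were replaced by 3. Its muscle to oWAT ratio was 905 (250 to 7480). ACTN3 in muscle was 47.8 times its oWAT level (36.6 to 63.6) and 121 times its sWAT level (79.1 to 196). Within muscle, ACTN3 had 1.45 counts for each count of ACTN2 (1.37 to 1.54), again without any correction for length. ACTA1, ACTN2 and ACTN3 were the 3 of the 9 genes called higher in muscle than in each of the other libraries. The same rule called 6.71% of all genes with at least 10 muscle counts.

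**Figure D1:**
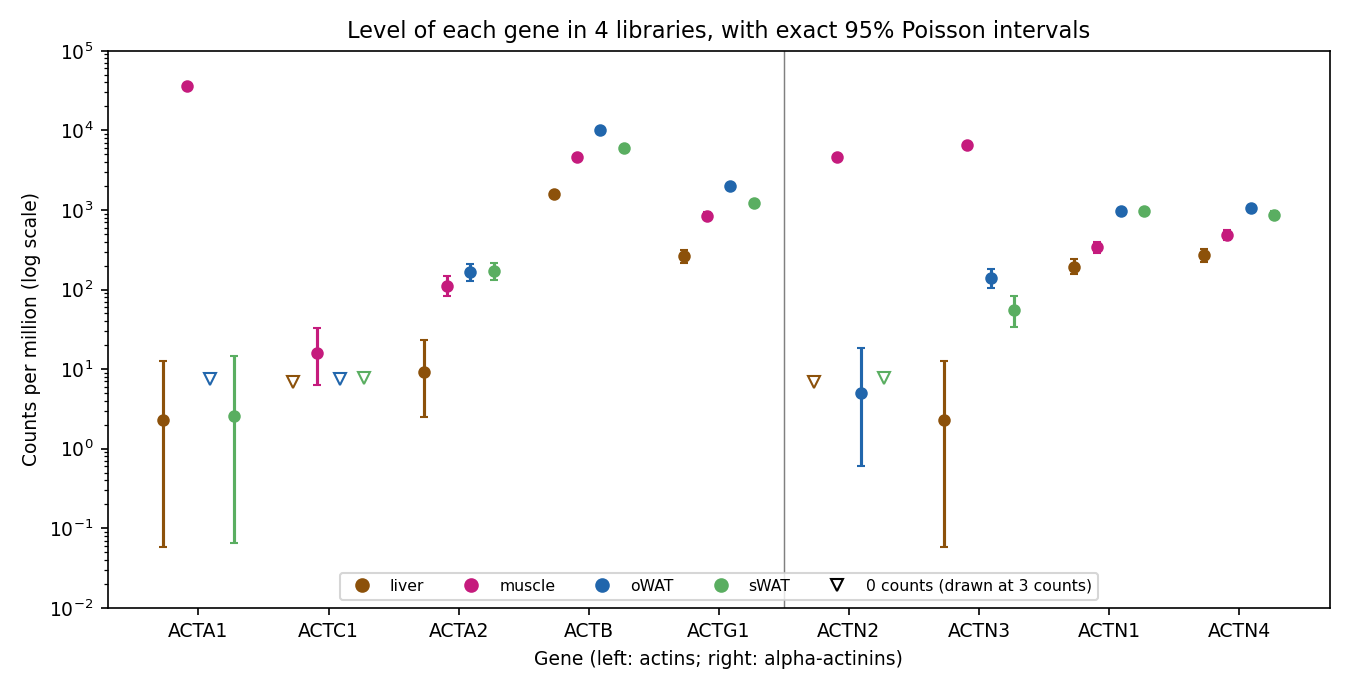
Level in CPM (log axis) of the 5 actins and 4 alpha-actinins in the liver, muscle, oWAT and sWAT libraries. Points are single libraries with exact 95% Poisson intervals, and open triangles mark 0 counts, drawn at 3 counts. ACTA1, ACTN2 and ACTN3 stand far above the other tissues in muscle, whereas ACTB, ACTG1, ACTN1 and ACTN4 are lowest in liver and highest in oWAT or sWAT.

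ACTN3 was the only sarcomeric member with more than 2 counts outside muscle. ACTA1, ACTN2, MYBPC1 and CKM had 0 to 2 counts in fat. Other abundant muscle genes had more, among them ATP2A1 (34 in oWAT, 27 in sWAT) and DES (15 and 11). In muscle there were 5.43 ACTA1 counts for each ACTN3 count (5.22 to 5.65). In oWAT there were 0 ACTA1 counts beside 55 of ACTN3, and in sWAT 1 beside 21. MYBPC1, which encodes a myosin-binding protein, and CKM, the muscle creatine kinase, each had 0 counts in oWAT. ACTN2 had 2 there. The source of the ACTN3 counts in fat was not tested.

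The level of ACTN3 in fat was 2.09% of its muscle level in oWAT (1.58 to 2.72) and 0.826% in sWAT (0.511 to 1.26). These intervals cover the fat counts alone. All 390 genes called higher in muscle, a call that itself requires a lower level in fat, had medians of 3.28% in oWAT and 2.54% in sWAT. Of these, 213 exceeded ACTN3 in oWAT and 215 in sWAT. Among the 25 with at least 1000 muscle counts, the median was 0.255% in oWAT and 0.0330% in sWAT, and 6 of them exceeded ACTN3 in each fat library. Those with a symbol were FHL1, DCAF6, PDE4DIP, GAPDH and PDLIM3. PDLIM3, which encodes a LIM-domain protein that binds alpha-actinin at the Z-disc, was close to ACTN3 at 2.14% in oWAT (1.35 to 3.20) and 0.960% in sWAT (0.460 to 1.76). Below ACTN3, but with counts in both fat libraries, lay ATP2A1 (0.363% and 0.298%), TTN (0.548% and 0.635%), PFKM (0.744% and 0.362%) and DES (0.498% and 0.377%). At the other end, 7 of the 23 genes with a symbol had 0 counts in both fat libraries, among them NEB (nebulin, the thin-filament ruler), CA3, MYBPC2 and MYH7. ACTN3 was 2.53 times higher in oWAT than in sWAT (1.51 to 4.41), which did not reach a call.

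**Figure D2:**
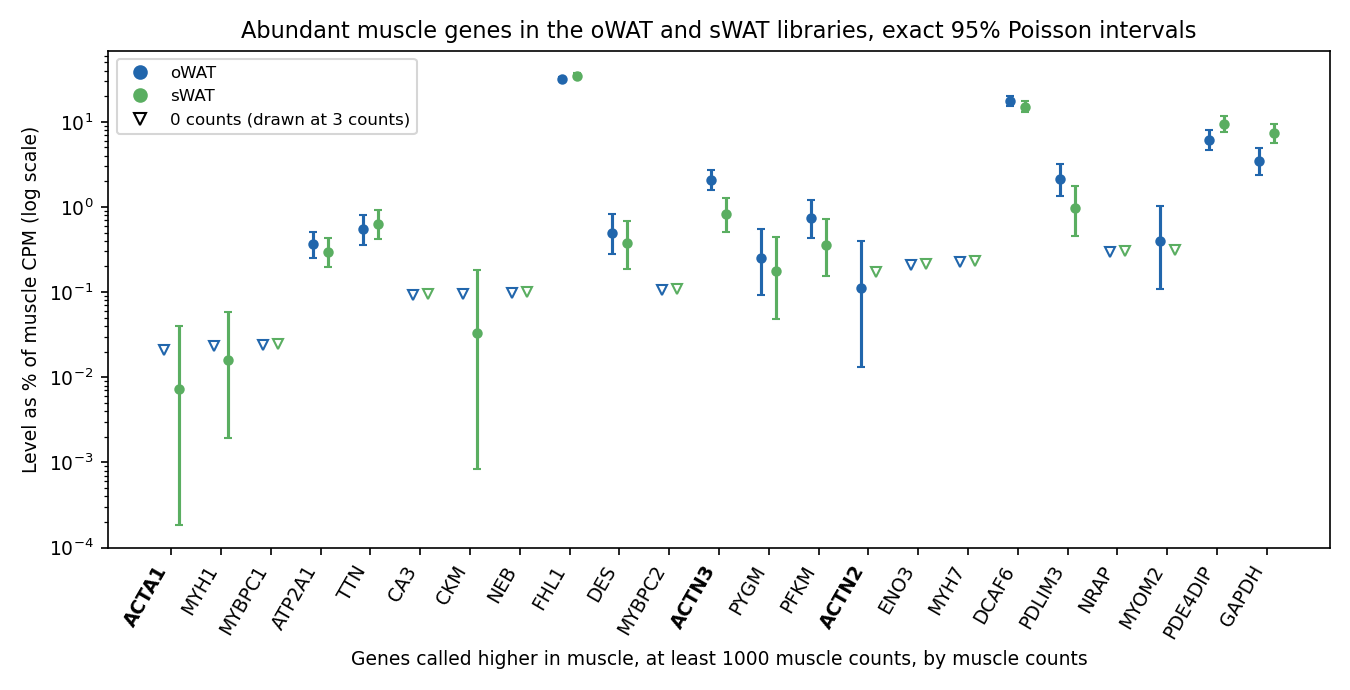
Level of 23 abundant muscle genes in oWAT and sWAT, as a percentage of the muscle CPM (log axis), ordered by muscle counts. Points carry exact 95% Poisson intervals of the fat counts, open triangles mark 0 counts drawn at 3 counts, and bold labels mark ACTA1, ACTN3 and ACTN2. ACTN3 lies at 2.09% and 0.826%, while ACTA1, MYH1 and MYBPC1 lie below 0.1% or at 0 counts.

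In RefSeq's table for the assembly T2T-MFA8v1.1, in which all 9 symbols were found, ACTN3 lies between CTSF and ZDHHC24. In the order liver, muscle, oWAT, sWAT, CTSF (cathepsin F) had 199, 79, 111 and 96 counts, and ZDHHC24 had 8, 10, 4 and 8. Neither was lowest in liver, where ACTN3 had 1 count. STAMBPL1 overlaps ACTA2 in that table, with 5 counts in oWAT, 1 in sWAT and 0 in liver and muscle, and CAPN12 overlaps ACTN4, with 6, 2, 8 and 4 counts. The non-coding RNA gene LOC141407479 overlaps ACTA1 and the pseudogene LOC102127174 overlaps ACTN1, and neither has an entry in the counts. The labels name neither the build and annotation behind the counts nor the treatment of strand or of reads shared by near-identical actins, so the part of neighbouring and copied genes in these values was not tested.

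ACTA2 had few counts beside the cytoplasmic actins in every library. Among all genes by count, ACTA2 ranked 1073rd in sWAT, 1233rd in oWAT, 1575th in muscle and 6892nd in liver. It had 4 counts in liver (9.14 CPM, 2.49 to 23.4), 49 in muscle (111 CPM, 82.4 to 147), 66 in oWAT (166 CPM, 129 to 212) and 65 in sWAT (169 CPM, 131 to 216). Liver was lowest, and the other 3 libraries lay within 1.52-fold of each other. Relative to liver ACTA2 was 18.5-fold higher in sWAT (6.90 to 70.0), 18.2-fold in oWAT (6.78 to 68.8) and 12.2-fold in muscle (4.47 to 46.5). The folds were 10.2, 9.06 and 8.97 with TMM, so these calls did not depend on the scaling. oWAT and sWAT did not differ beyond counting error, at a ratio of 0.982 (0.687 to 1.41). Muscle was 0.670 times oWAT (0.453 to 0.984) and 0.658 times sWAT (0.445 to 0.968), ratios that rose to 0.990 and 0.876 with TMM.

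The other smooth muscle genes did not all share this order. Their list had 10 measured members (at least 10 counts over the 4 libraries), and 4 of them (MYH11, TAGLN, LMOD1 and SMTN) were called higher in both fat libraries than in liver, where the background is 20.9%. With TMM scaling 1 of them remained called in both, and with DESeq2 2, for which no background was found. MYH11, the smooth muscle myosin, had 11, 62, 75 and 172 counts in liver, muscle, oWAT and sWAT, so that sWAT led where ACTA2 was level. MYLK, the kinase that activates smooth muscle myosin, had 115, 29, 104 and 145 counts and was lowest in muscle, not in liver. SYNPO2, an actin-binding protein of the Z-disc and of smooth muscle, was a muscle gene here, with 525 counts against 1, 7 and 15. ACTG2, the enteric smooth muscle actin, had 0, 1, 4 and 4 counts. Summed over the list, liver had 464 CPM, of which MYLK gave 263, muscle 1935, of which SYNPO2 gave 1194, oWAT 1595 and sWAT 1636. The list's median log2 ratio was 2.66 for oWAT to liver, beside 0.98 for all genes, and -0.70 for muscle to oWAT, beside -0.54. The 7 pericyte markers summed to 201, 982, 1091 and 1615 CPM in the same order. Outside liver most of the sum came from PDGFRB, RGS5 and MCAM, which were called higher in both fat libraries than in liver. In liver PDGFRB, RGS5 and MCAM had 29.7, 27.4 and 0 CPM. KCNJ8 (48.0, 4.55, 15.1 and 10.4 CPM) and ABCC9 (96.0, 45.5, 12.6 and 46.9) were instead highest in liver. Of 8 myofibroblast and fibroblast markers 7 were called higher in both fat libraries than in liver, and 6 with TMM or DESeq2. They summed to 313, 17739, 19478 and 65304 CPM in the same order, mostly from COL1A1 and COL3A1. In sWAT 3 were called higher than in oWAT (background 0.767%), where ACTA2 was level. The part of smooth muscle cells, pericytes and myofibroblasts in the ACTA2 values was not tested.

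Of the cytoplasmic actins ACTB had the more counts in every library and ACTG1 moved with it. ACTB had 684 counts in liver (1563 CPM, 1448 to 1685), 2007 in muscle (4563 CPM, 4365 to 4767), 3991 in oWAT (10058 CPM, 9748 to 10375) and 2330 in sWAT (6069 CPM, 5825 to 6321). It ranked second among all genes of the oWAT library as sequenced, and 72nd in liver. ACTG1 had 114 counts in liver (261 CPM), 371 in muscle (843 CPM), 788 in oWAT (1986 CPM) and 471 in sWAT (1227 CPM). For both genes the order was oWAT, sWAT, muscle and liver, and no pair of neighbours in that order had an interval that included 1. The step from sWAT to muscle rested on the scaling: ACTB in muscle was 0.752 times its sWAT level (0.708 to 0.798) by library total, 1.001 with TMM and 0.968 with DESeq2.

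Both cytoplasmic actins were called higher than liver in all 3 other tissues. ACTB was 6.43-fold higher in oWAT (5.93 to 6.99), 3.88-fold in sWAT (3.56 to 4.23) and 2.92-fold in muscle (2.67 to 3.19), and ACTG1 was 7.62-fold (6.26 to 9.36), 4.71-fold (3.83 to 5.83) and 3.24-fold higher (2.62 to 4.03). Set against the shift of the median gene, ACTB was 3.27, 2.32 and 2.10 times higher. With TMM its folds were 3.21 in oWAT, 2.15 in sWAT and 2.15 in muscle, and the last pair lost the call. ACTG1 with TMM was 3.80-fold in oWAT, 2.60-fold in sWAT and 2.38-fold in muscle, where its call was lost. The difference between the fat libraries was smaller: oWAT over sWAT was 1.66 for ACTB (1.57 to 1.74) and 1.62 for ACTG1 (1.44 to 1.82), below the call in both.

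oWAT was called above muscle for ACTB (2.20-fold, 2.09 to 2.33) and ACTG1 (2.35-fold, 2.08 to 2.67), but with TMM muscle stood at 0.670 and 0.628 of oWAT and neither gene was called. Leukocyte markers, of cells rich in cytoplasmic actin, had counts for all 8 members in every library. Summed, liver had 459 CPM, muscle 505, oWAT 2641 and sWAT 1586. The list's median log2 ratio was -2.69 for muscle to oWAT and 0.90 for oWAT to sWAT, but -0.46 for muscle to liver, where ACTB was higher, and 5 of the 8 were lower in muscle than in liver. CD163 was higher in sWAT than in oWAT (162 against 83.2 CPM). Between the fat libraries 0 of the 8 leukocyte markers were called. Of 8 mesothelial markers 6 were measured, and KRT8 and KRT18 had no entry in any library. All 6 were called higher in oWAT than in sWAT (background 1.43%). They summed to 3901 CPM in oWAT and 0 in sWAT, beside 22.9 in liver and 0 in muscle. The part of leukocytes and mesothelium in the ACTB and ACTG1 values was not tested.

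The proportion between ACTB and ACTG1 did not differ between any pair of libraries beyond counting error. There were 6.0 ACTB counts per ACTG1 count in liver (4.91 to 7.38), 5.41 in muscle (4.84 to 6.06), 5.06 in oWAT (4.69 to 5.47) and 4.95 in sWAT (4.48 to 5.47). All 6 ratios between pairs of libraries had intervals that included 1. The largest gap, sWAT to liver, was 0.825 (0.655 to 1.03), so these counts leave room for a change down to a factor of 0.655. The proportion is free of library scaling, and the ACTB level itself spanned a 6.43-fold range over the same 4 libraries.

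**Figure D3:**
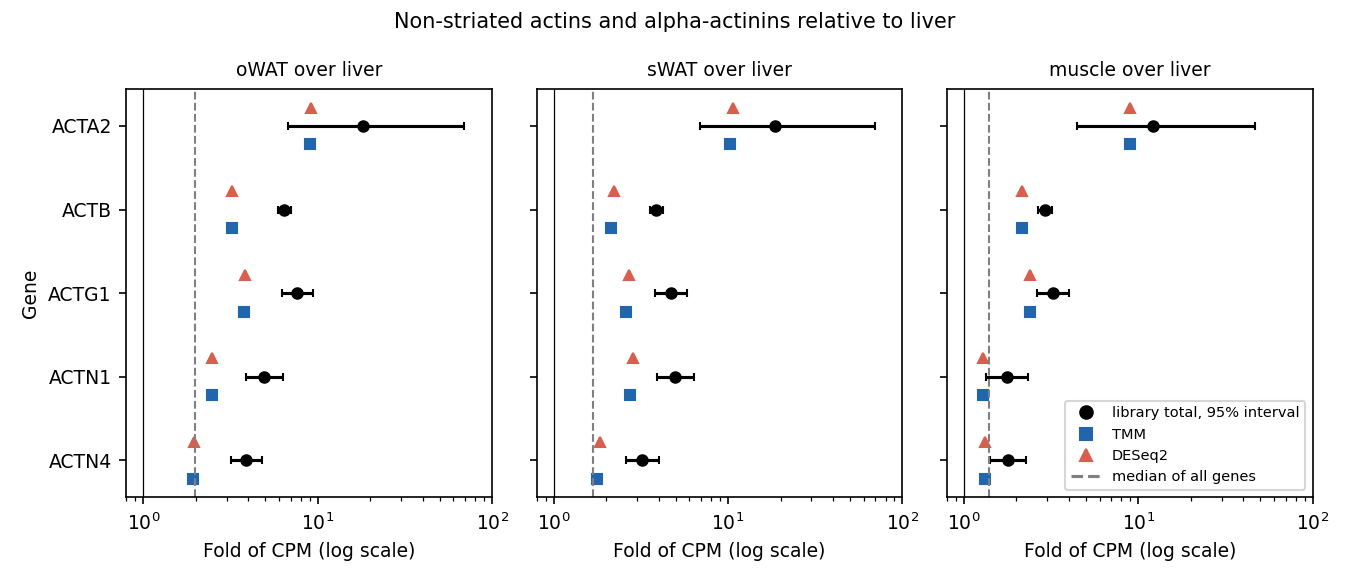
Fold of CPM over liver (log axis) for ACTA2, ACTB, ACTG1, ACTN1 and ACTN4 in oWAT, sWAT and muscle. Black points are scaled to the library total with exact 95% intervals, blue squares use TMM, red triangles use DESeq2 size factors, and the dashed line is the median of all genes by library total. ACTA2 lies at 8.97 or above under all 3 scalings, while ACTN4 falls from 3.89 to 1.94 in oWAT with TMM.

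The non-muscle alpha-actinins were higher in fat than in liver and differed little between the fat libraries. ACTN1 had 85 counts in liver (194 CPM, 155 to 240), 150 in muscle (341 CPM, 289 to 400), 381 in oWAT (960 CPM, 866 to 1062) and 371 in sWAT (966 CPM, 871 to 1069.9). ACTN4 had 118 in liver (270 CPM, 223 to 323), 212 in muscle (482 CPM, 419 to 551), 416 in oWAT (1048 CPM, 950.1 to 1154) and 333 in sWAT (867 CPM, 777 to 966). ACTN1 was level between oWAT and sWAT (0.994, 0.859 to 1.15), and ACTN4 was 1.21 times higher in oWAT (1.04 to 1.40). Both were lowest in liver, with muscle next.

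ACTN1 was the 1 gene of the 9 called higher in both fat libraries than in both liver and muscle, against 4.22% of all genes with at least 10 counts in each fat library. It was 4.94-fold over liver in oWAT (3.898 to 6.33) and 4.98-fold in sWAT (3.92 to 6.37), and 2.82-fold over muscle in oWAT (2.33 to 3.42) and 2.83-fold in sWAT (2.34 to 3.45). With TMM the fold over liver was 2.46 in oWAT, where the call was lost, and 2.75 in sWAT, and both calls over muscle were lost. ACTN4 was called over liver at 3.89-fold in oWAT (3.16 to 4.81) and 3.22-fold in sWAT (2.60 to 4.003). TMM brought these to 1.94 and 1.78 and ended both calls. Set against the shift of the median gene, ACTN4 was 1.98 times higher in oWAT and 1.92 times in sWAT. In muscle ACTN1 was 1.76 times (1.34 to 2.32) and ACTN4 1.79 times its liver level (1.42 to 2.26), neither of them called.

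By count, 6 of the 9 genes were called higher in oWAT than in liver, where 25.8% of all genes tested were, and the same 6 in sWAT, where 24.2% were. They were ACTA2, ACTB, ACTG1, ACTN1, ACTN3 and ACTN4, the only members with at least 10 counts in either fat library. Against muscle, 3 genes were called higher in oWAT (ACTB, ACTG1 and ACTN1, background 11.4%) and 1 in sWAT (ACTN1, background 11.2%). In muscle 6 were called higher than in liver (background 23.0%), 3 higher than in oWAT (8.30%) and 3 higher than in sWAT (9.23%). None was called higher in liver than in muscle, oWAT or sWAT, where 17.7%, 12.9% and 13.6% of genes were. Only ACTB, ACTG1, ACTN1 and ACTN4 had the 10 liver counts that such a call needs. Between the fat libraries 0 of the 9 were called in either direction, with a background of 1.43% for oWAT over sWAT and 0.767% for the reverse. None was called in oWAT over each other library (background 0.701%), in sWAT over each (0.434%) or in liver over each (10.8%). Liver was called below each other library for 4 (ACTA2, ACTB, ACTG1 and ACTN3, background 11.8%). These comparisons share libraries and are not independent of each other. Each background covers only genes with at least 10 counts in the higher library or libraries. That base is stricter than the 9 genes or the measured members of a list.

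Isoform shares, which no scaling of the libraries can change, set muscle apart from the other 3 tissues. They are shares of counts within a family whose coding lengths are close. Of the 18261 actin counts in muscle, ACTA1 took 86.7% (86.2 to 87.2), ACTB 11.0% (10.5 to 11.5), ACTG1 2.03% (1.83 to 2.25), ACTA2 0.268% (0.199 to 0.355) and ACTC1 0.0383% (0.0154 to 0.0790). In liver ACTB took 85.2% of 803 actin counts (82.5 to 87.6), ACTG1 14.2% (11.9 to 16.8) and ACTA2 0.498% (0.136 to 1.27). In oWAT the shares were 82.4% for ACTB (81.3 to 83.4), 16.3% for ACTG1 (15.2 to 17.3) and 1.36% for ACTA2 (1.06 to 1.73) of 4845. In sWAT they were 81.3% (79.8 to 82.7), 16.4% (15.1 to 17.8) and 2.27% (1.75 to 2.88) of 2867. ACTA1 and ACTC1 were at 0 of 4845 actin counts in oWAT, with an exact upper bound of 0.0761% for the share of each.

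With ACTA1 and ACTC1 set aside, the ACTA2 share of muscle lay between those of the fat libraries, with an interval that overlapped both. ACTA2 was then 2.02% of the non-striated actin counts in muscle (1.497 to 2.66), beside 2.27% in sWAT (1.75 to 2.88), 1.36% in oWAT (1.06 to 1.73) and 0.499% in liver (0.136 to 1.27). In its ratio of ACTA2 to ACTB, muscle stood at 1.48 of oWAT (0.995 to 2.18) and 0.875 of sWAT (0.588 to 1.29). Both intervals included 1. The ratio of ACTA2 to ACTB in oWAT was 0.593 times that in sWAT (0.413 to 0.852). In this pair of libraries the ACTA2 counts were 66 and 65, and the ACTB counts 3991 and 2330.

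For the alpha-actinins, ACTN3 took 55.2% of 5283 counts in muscle (53.8 to 56.5), ACTN2 38.0% (36.7 to 39.3), ACTN4 4.01% (3.50 to 4.58) and ACTN1 2.84% (2.41 to 3.32). In liver ACTN4 led with 57.8% of 204 counts (50.7 to 64.7), followed by ACTN1 with 41.7% (34.8 to 48.8). In oWAT ACTN4 had 48.7% (45.3 to 52.1), ACTN1 44.6% (41.2 to 48.0) and ACTN3 6.44% (4.89 to 8.30) of 854. In sWAT ACTN1 had 51.2% (47.5 to 54.9), ACTN4 45.9% (42.3 to 49.6) and ACTN3 2.90% (1.80 to 4.39) of 725. The non-muscle forms together made up 99.5% in liver, 93.3% in oWAT and 97.1% in sWAT, against 6.85% in muscle.

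The balance of ACTN1 and ACTN4 differed between some libraries. There were 0.720 ACTN1 counts per ACTN4 count in liver (0.539 to 0.960), 0.708 in muscle (0.570 to 0.876), 0.916 in oWAT (0.795 to 1.055) and 1.11 in sWAT (0.958 to 1.30). Relative to liver the ratio was 1.55 times higher in sWAT (1.11 to 2.15), and muscle stood at 0.635 of sWAT (0.487 to 0.827). The other 4 pairs of libraries had intervals that included 1. Liver and muscle, for example, were at 0.982 (0.683 to 1.41).

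**Figure D4:**
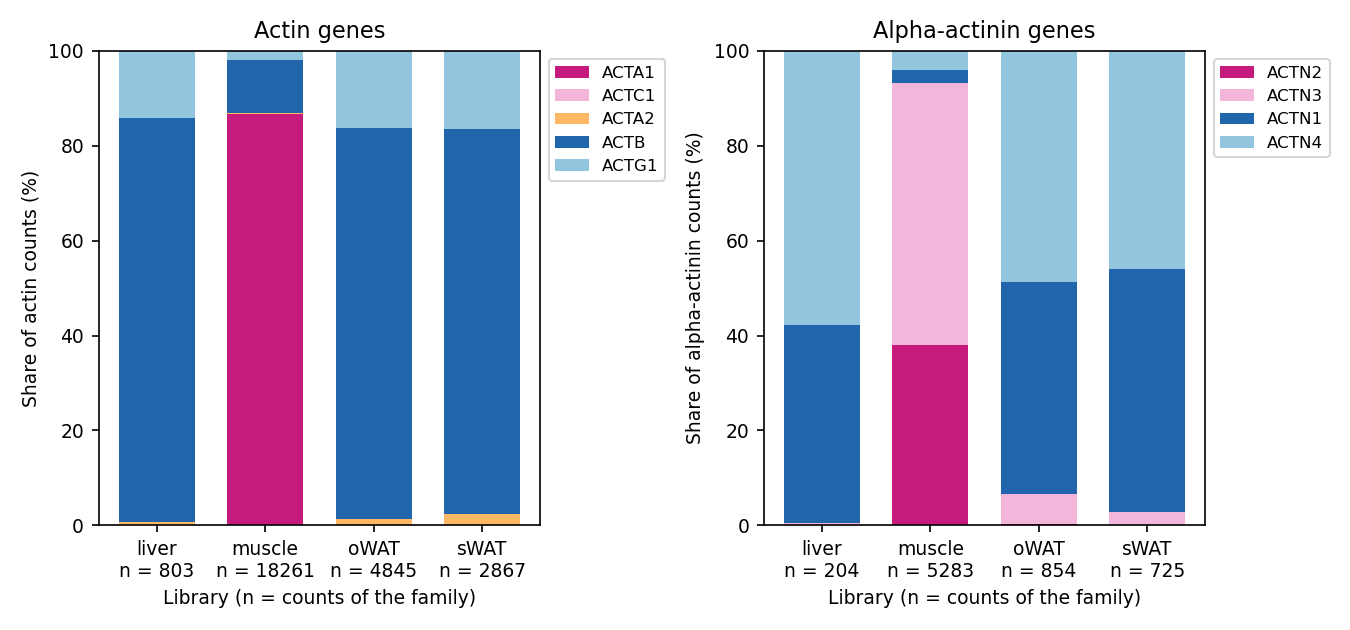
Shares of the counts of each family (percent) taken by the 5 actins, left, and the 4 alpha-actinins, right, in liver, muscle, oWAT and sWAT, with the family's total counts under each bar. ACTA1 fills 86.7% of the actin bar in muscle and ACTB 81.3% to 85.2% of the others. ACTN3 and ACTN2 fill 93.1% of the alpha-actinin bar in muscle, and ACTN3 is visible at 6.44% in oWAT.

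Summed over the family, the actins made up 4.15% of the muscle library, 1.22% of oWAT, 0.747% of sWAT and 0.184% of liver, and the alpha-actinins 1.20%, 0.215%, 0.189% and 0.0466%. Muscle exceeded liver 22.6-fold in actins (21.1 to 24.3) and 25.8-fold in alpha-actinins (22.4 to 29.8). The ratio of actin to alpha-actinin counts, with no correction for length or for the different mix of members in each tissue, was 3.94 in liver (3.37 to 4.61), 3.46 in muscle (3.35 to 3.56), 3.95 in sWAT (3.64 to 4.30) and 5.67 in oWAT (5.27 to 6.11). oWAT stood above the other 3. For the non-muscle forms alone, ACTB and ACTG1 over ACTN1 and ACTN4, the ratio was 3.93 in liver (3.37 to 4.61), 3.98 in sWAT (3.66 to 4.33), 5.996 in oWAT (5.56 to 6.47) and 6.57 in muscle (5.88 to 7.36). Liver and sWAT formed a lower pair, oWAT and muscle a higher one.

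Most partners of sarcomeric actin and alpha-actinin were called higher in muscle. Of 15 measured thin filament genes 13 were called higher in muscle than in each other library (background 6.71%), among them NEB (3441 counts against 0 in the other 3), TPM1, a tropomyosin (711 against 14, 54 and 33), and XIRP1 (395 against 0). TPM3, a tropomyosin of slow fibres and of other cells, was not among them, with 44, 131, 234 and 163 counts in liver, muscle, oWAT and sWAT. Of 16 Z-disc genes 14 were called against the same background of 6.71%, among them TTN (titin, 5053 counts against 54, 25 and 28), PDLIM3 (1194 against 1, 23 and 10), NRAP (1120 against 1, 0 and 0) and LDB3 (994 against 1, 4 and 3). With TMM or DESeq2 the thin filament count stayed 13 and the Z-disc count was 13. The median log2 ratio of muscle to sWAT was 5.66 for the thin filament list and 6.82 for the Z-disc list, beside -0.37 for all genes.

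The adhesion genes whose products bind non-muscle alpha-actinin or its neighbours were mostly higher in fat than in liver. Of 14 measured, 12 were called higher in both fat libraries than in liver, where the background is 20.9% by library total. With TMM 5 remained and with DESeq2 5, for which no background was found. FLNA, a filamin that cross-links actin, had 21, 139, 345 and 451 counts in liver, muscle, oWAT and sWAT. ITGB1, the integrin beta-1 chain, had 107, 188, 425 and 614, and TLN1, the talin that ties integrins to actin, 53, 61, 192 and 178. PXN (paxillin) differed from these, with 24, 206, 192 and 140 counts, so that muscle was level with oWAT (0.968, 0.791 to 1.18). Against muscle, 5 of the 14 were called higher in both fat libraries (background 7.05%), and 1 with TMM or DESeq2. The list's median log2 ratio of oWAT to liver was 2.80 beside 0.98 for all genes, and that of muscle to sWAT was -1.61 beside -0.37.

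Genes of actin assembly and turnover did not all follow the same tissue. Of 25 measured, 5 were called higher in muscle than in each other library under all 3 scalings (background 6.71% by library total): PFN2 (profilin, 165 counts against 1, 20 and 6), CFL2 (the muscle cofilin, 144 against 15, 10 and 14), CAP2 (484 against 3, 21 and 12), CAPZA2, a subunit of the filament-capping protein (446 against 65, 135 and 111), and TWF2 (60 against 1, 8 and 14). CAP1, the widely expressed relative of CAP2, had 90, 124, 253 and 253 counts in that order of tissues. In both fat libraries 9 were called higher than in liver (background 20.9% by library total), and 2 with TMM or DESeq2, for which no background was found. The list's median log2 ratio of muscle to liver was 0.40, beside 0.48 for all genes, and turned to -0.040 with TMM.

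Of 9 measured other actin-family genes 3 were called higher in both fat libraries than in liver, against a background of 20.9%. ACTR2 and ACTR3, which were among them, are the actin-related subunits of the Arp2/3 complex that nucleates branched filaments. ACTR2 had 127, 214, 426 and 347 counts and ACTR3 54, 83, 221 and 160 in liver, muscle, oWAT and sWAT. ACTR1A, the filament protein of dynactin, was the other, with 12, 145, 60 and 57 counts. None of these 3 calls in both fat libraries held with TMM or DESeq2. The 11 measured genes for actin folding and modification were led by the chaperonin subunits CCT5, CCT3, TCP1 and CCT7. By library total 1 of the 11, VBP1, was called higher in muscle than in liver (15 counts against 1, background 23.0%). None was called higher in oWAT or sWAT than in liver (25.8% and 24.2%), or in muscle over oWAT or sWAT (8.30% and 9.23%) or the reverse (11.4% and 11.2%). Whether the VBP1 call holds with TMM or DESeq2 is not reported here. CCT5 had 49, 98, 89 and 65 counts, or 112 CPM in liver and 223 in muscle. The list's median log2 ratio of muscle to liver was 0.89, beside 0.48 for all genes.

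Of 10 measured regulators of actin gene transcription, 4 were called higher in muscle than in each other library under all 3 scalings, beside 6.71% of all genes by library total. They were the myogenic factors MYOD1 (84 counts against 0 in the other 3), MYOG (43 against 0, 1 and 0) and MYF6 (40 against 0, 0 and 1), and MEF2C (150 against 5, 30 and 42). MRTFA, an actin-sensing cofactor of serum response factor, had 4, 34, 48 and 37 counts, and its relative MRTFB 13, 23, 39 and 85. SRF itself had 1 count, in sWAT, and MYOCD 0, 1, 1 and 3, so that neither could be compared at this depth.

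The genes nearest in their distribution over the 4 libraries were found for the 8 members with at least 100 counts, among 3250 genes with a symbol and at least 100 counts. The measure was the largest log2 difference in any library between the genes' shares across tissues, after adding 0.5 counts. For ACTG1 the nearest was ZYX (zyxin, an adhesion protein that binds alpha-actinin), with a largest difference of 0.048, followed by GGPS1 and LIMS2. For ACTB they were RBPJ (0.033), GGPS1 and CD59. For ACTN4 they were NOS3 (0.045), ACTR2 (0.060) and OGA, and for ACTN1 ZDHHC9 (0.066), PTPN1 and PML. For ACTA2 they were LMNA (0.037), ACER2 and MXRA8. Such profiles were common: 829 genes lay within a 2-fold difference of ACTB in every library and 1286 within that of ACTN4. Some of these rest on few liver counts, with 4 for ACTA2, 2 for ACER2, 13 for RBPJ, 9 for GGPS1 and 12 for NOS3. Counting error therefore makes the order of the nearest genes uncertain.

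The muscle members had few near neighbours. For ACTA1 they were MYH1 (0.89), MYBPC1 (1.40) and CA3 (2.12), for ACTN2 CASQ1 (1.42), MYH7 (1.87) and ENO3 (1.99), and for ACTN3 PDLIM3 (1.28), JPH2 (1.29) and PFKM (1.44). No gene lay within a 2-fold difference of ACTN2 or of ACTN3 in every library, and 1 lay within that of ACTA1. The 3 nearest to ACTN3, which this measure picks for a like distribution, had 23 and 10 (PDLIM3), 6 and 4 (JPH2) and 17 and 8 counts (PFKM) in oWAT and sWAT. These distances rest on 4 libraries and, for the muscle genes, on single counts outside muscle.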

How the data were processed

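The authors deposited whole-number gene counts, not normalized, for 1 full-length library per tissue (liver, muscle, oWAT, sWAT), listing genes with at least 1 count. Per the labels' protocols, RNA of 5 monkeys was pooled in each. Per the submitters' processing notes, minimap2 2.24 was used. Counter, build and annotation: not given in the sources used here.

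Unlisted genes were taken as 0. The entry that names no gene (14.3% to 19.5% of counts) stayed out of the totals. Folds are ratios of CPM with exact Clopper-Pearson intervals, and levels have exact Poisson intervals. A 0 was replaced by 3 counts for a fold, and the exact lower bound, which uses the 0 itself, is given beside it. Calls were made on all genes and tested on simulated data. No p-values were computed. Members and the 18 gene lists were chosen with earlier results of these data known. Named were all members, up to 4 members of a list with the most counts, and the 3 nearest profiles. Other genes, such as called list members, were chosen after their values were seen. Scaling factors came from edgeR 4.0.16 and DESeq2 1.42.0 in R 4.3.3. Python 3.11.15, NumPy 2.4.6, pandas 2.3.3, SciPy 1.17.1 and matplotlib 3.10.9 were used otherwise. RefSeq's gene table for T2T-MFA8v1.1 served only to match symbols and to find neighbouring genes. No genome or sequence table was used, so no sequences are given, and no coordinates, since the build of the counts is not known. Some reference genes are not reported here.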

Additional observations from a re-analysis of the deposited data

Results flagged for a closer look

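ACTG2, the enteric smooth muscle actin, lies outside the 9 genes and had 4 counts in oWAT and 4 in sWAT, above the 3 put in place of a 0. Counts that name no gene, which entered no comparison, made up 19.2% of the liver file, 14.3% of muscle, 19.5% of oWAT and 16.6% of sWAT. Whether any of them come from actin or alpha-actinin transcripts was not tested.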

How the results depend on the processing

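Of the member counts, the number called in both fat libraries over liver was 6 and became 3 with TMM. The 1 gene called in both fat libraries over muscle, over liver and muscle, and in sWAT over muscle became 0 with TMM and with DESeq2. The 3 called in oWAT over muscle became 0 with TMM and DESeq2, and 1 when the 10 top genes by count in each library left the totals or with the entry that names no gene. The 4 genes lowest in liver against each other library became 2 with TMM and DESeq2. With a lower bound above 1, the counts were 5 in oWAT over muscle, 5 in sWAT over muscle, 5 in both fat libraries over muscle and 5 over liver and muscle, 4 in oWAT over sWAT and 3 in oWAT over each other library. With a bound above 4 they were 0 in oWAT and 0 in sWAT over muscle, 0 in both over muscle and 0 over liver and muscle, 1 in sWAT over liver, 1 in both over liver and 1 lowest in liver. The summed alpha-actinins lost their call over liver in oWAT (2.30 with TMM, 2.33 with DESeq2) and sWAT (2.238 and 2.32). Muscle over sWAT for ACTB turned to 1.001 with TMM. ACTA1 in sWAT over liver, 1 count each, turned from 1.14 to 0.630 with TMM and 0.653 with DESeq2. In all of these the cause was not tested. The 3 calls in muscle over each other library held under all 9 alternatives, the 99% interval and the minimum of 30 counts moved no count by over 1.5 times, and adding ACTG2 moved none of the 32 actin shares beyond its interval. With 3 counts added, the nearest profiles were kept for ACTA1, and 1 or 2 of 3 for the others. Shares per coding length were not run, as no coding lengths were used here. No paired analysis was possible because each tissue has 1 library.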

Other observations

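ACTB is a common reference gene for relative expression, and its level spanned 6.43-fold over the 4 libraries (5.93 to 6.99), or 3.21-fold with TMM. The other common reference genes given here were chosen after the actin values were seen. GAPDH spanned 28.6-fold (20.1 to 42.0), highest in muscle, PGK1 6.57-fold (4.99 to 8.76), also highest in muscle, and B2M 6.28-fold (5.00 to 7.95), highest in sWAT. TBP spanned 1.55-fold, with 9 to 14 counts a library (0.641 to 3.91), and RPLP0 1.66-fold, with 8 to 12 counts (0.625 to 4.69). PFN1 and TMSB10, small actin-binding proteins, had 5 to 10 and 1 to 4 counts a library. TMSB4X, from the same list, had more, with 3, 16, 44 and 63 counts in liver, muscle, oWAT and sWAT.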
